A study of Mus musculus with 26 samples.

Results

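The PGC-1 coactivators and the ERR receptors are a small set of transcriptional regulators of mitochondria and oxidative metabolism. The set described here is a list of 10 genes chosen by name and role rather than by a threshold on measured values. It was chosen with earlier results of these data known. All 10 were found by symbol among the 50686 genes of the counts table. The set holds the 3 PGC-1 family members Ppargc1a, Ppargc1b and Pprc1, the related regulator Perm1, the 3 estrogen-related receptors Esrra, Esrrb and Esrrg, and the factors Nrf1, Gabpa and Tfam. All 10 passed the filter on low counts and are among the 17286 genes tested.

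Coactivators of the PGC-1 family do not bind DNA themselves. They dock on nuclear receptors and other DNA-bound factors and recruit the enzymes that open chromatin and start transcription. ERRs are orphan nuclear receptors that bind genes of fatty acid oxidation, the citrate cycle and the respiratory chain, while NRF1 and the GABP complex bind many genes of the respiratory chain and of mitochondrial DNA expression. TFAM, the product of one of their targets, packages mitochondrial DNA and starts its transcription. In brown adipose tissue (BAT), which burns fuel to produce heat through the uncoupling protein UCP1, noradrenaline released in the cold raises cAMP in adipocytes, and Ppargc1a is a classic gene of that pathway.

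BAT from 26 male mice on a C57BL/6J background was profiled by RNA-sequencing, 1 library per mouse. The mice were 12 to 16 weeks old when they were placed at thermoneutrality. Mice with fat-specific loss of Afadin (FAKO) carried a floxed Mllt4 gene, now called Afdn, and Adiponectin-Cre, which acts in adipocytes and leaves the gene intact in the vessels, nerves and immune cells of the tissue. Control littermates are labelled WT, and whether they carried the floxed gene or Cre is not given in the sources used here. After 2 weeks at thermoneutrality, 7 control mice and 7 FAKO-labelled mice stayed there, and 5 control mice and 7 FAKO-labelled mice were moved to 5 °C for 6 h. Thermoneutrality is 30 °C in the labels, which is used here, and 29 °C in the study's methods. The tissue is labelled as supraclavicular BAT. The design asks how cold alters each gene, whether the FAKO label alters it at either temperature, and whether the cold response differs between the labels.

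Total counts ran from 12705969 to 25732258 per mouse, and genes of the mitochondrial genome took from 14.3% to 40.5% of them. Mitochondrial rRNA, which is part of that share, took from 8.99% to 32.9% of all counts. Levels are given as CPM, the counts of a gene per 1000000 counts, on library sizes scaled with TMM factors, and differences as log2 fold changes with their standard error (SE) from edgeR's quasi-likelihood test, adjusted by Benjamini-Hochberg over all 17286 genes. Ucp1, the defining gene of BAT, averaged 985 CPM in control mice at 30 °C and 16005 CPM at 5 °C, and 811 and 16429 CPM in FAKO-labelled mice. All 7 brown adipocyte markers had a mean of at least 1 CPM in each group, except Elovl3 in control mice at 30 °C. Afdn, the targeted gene, averaged 196 CPM in control mice and 195 CPM in FAKO-labelled mice at 30 °C (log2 fold change -0.01, edgeR adjusted p = 0.992). At 5 °C it averaged 73.5 CPM in control mice and 58.5 CPM in FAKO-labelled mice, with no overlap between the groups (log2 fold change -0.33, edgeR adjusted p = 0.116, and 0.0478 with DESeq2). Because Afdn mRNA does not separate the labels at 30 °C, groups are called by their labels throughout. The counts are per gene and not per exon, and protein is not part of these data. On blots of BAT, the study reported a smaller cold-induced rise of Afadin protein in FAKO mice than in control mice.

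Skeletal muscle RNA was present in very unequal amounts. All 12 muscle markers (such as Acta1 and Ckm) had counts in each group, and their summed level ran from 8.96 to 6507 CPM in control mice at 30 °C, from 5.30 to 1821 CPM in FAKO-labelled mice at 30 °C, from 1.5 to 5738 CPM in control mice at 5 °C and from 2.66 to 9150 CPM in FAKO-labelled mice at 5 °C. Several of the genes described here are also used by muscle. The counts of called genes were repeated without the libraries over 1000 CPM of these markers, which kept 5, 4, 3 and 4 mice of the 4 groups. This limit was chosen after the values were seen. The counts for the 10 genes stayed at 9 and 8 in the cold comparisons and at 0 in the others.

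Promoters of 4 genes are shown because they include the largest response to cold and the 3 promoters of the set that hold a searched motif. Each window runs from 250 bases before to 50 bases after the RefSeq start of transcription on GRCm38.p6, the build the counts use, and is written 5′ to 3′ on the strand of the gene. Letters in capitals mark a match to one of 4 motifs searched on both strands: the cAMP response element (CRE, TGACGTCA), the ERR element (TCAAGGTCA), the NRF1 core (GCGCATGC) and the ETS motif bound by GABP (CCGGAAG). None of the 4 motifs overlapped another in these windows. The first window lies at chr5:51567676-51567975 on the minus strand, the second at chr19:6921759-6922058 on the minus strand, the third at chr16:84834874-84835173 on the plus strand and the last at chr10:71237995-71238294 on the minus strand.
Ppargc1a: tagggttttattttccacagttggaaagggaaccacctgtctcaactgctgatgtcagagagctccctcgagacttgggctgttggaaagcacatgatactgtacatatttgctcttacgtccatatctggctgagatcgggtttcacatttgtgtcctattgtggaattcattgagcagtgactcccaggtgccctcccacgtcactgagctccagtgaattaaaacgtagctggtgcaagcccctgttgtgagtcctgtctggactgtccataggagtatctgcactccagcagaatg
Esrra: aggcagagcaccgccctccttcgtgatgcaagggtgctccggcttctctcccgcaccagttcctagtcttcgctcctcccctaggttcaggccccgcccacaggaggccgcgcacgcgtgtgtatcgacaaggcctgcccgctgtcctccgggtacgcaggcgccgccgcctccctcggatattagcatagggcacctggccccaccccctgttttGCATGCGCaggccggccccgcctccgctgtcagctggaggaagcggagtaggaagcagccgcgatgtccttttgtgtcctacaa
Gabpa: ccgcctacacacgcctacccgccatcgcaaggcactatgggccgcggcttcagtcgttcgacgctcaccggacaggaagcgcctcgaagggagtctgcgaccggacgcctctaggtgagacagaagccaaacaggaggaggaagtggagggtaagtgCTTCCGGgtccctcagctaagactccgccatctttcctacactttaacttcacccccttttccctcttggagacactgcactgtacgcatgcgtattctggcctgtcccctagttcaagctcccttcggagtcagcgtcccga
Tfam: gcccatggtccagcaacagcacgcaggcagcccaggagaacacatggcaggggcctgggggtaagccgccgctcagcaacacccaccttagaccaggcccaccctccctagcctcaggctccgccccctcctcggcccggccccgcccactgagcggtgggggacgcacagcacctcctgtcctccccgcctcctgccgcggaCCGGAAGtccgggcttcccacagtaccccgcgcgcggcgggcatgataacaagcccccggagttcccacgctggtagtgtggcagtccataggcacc

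Esrra held an NRF1 core whose first base lies 34 bases before the start. Gabpa and Tfam each held an ETS motif, at 93 and 47 bases before the start. Among all 32851 RefSeq promoters of this length, 2.71% held the NRF1 core, 8.86% the ETS motif, 1.79% the CRE and 0.423% the ERR element. RefSeq listed 14 promoters for 9 of the 10 genes, and the other 11, that of Ppargc1a among them, held none of the 4 letter strings. A match is a description of these letters, and a window without one says nothing about a factor.

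Cold altered most of the set in both labels. In control mice 9 of the 10 genes passed the threshold, with 8 higher and 1 lower at 5 °C. This is to be read against a background in which 65.0% of all genes tested passed, 31.6% higher and 33.4% lower. In FAKO-labelled mice 8 of 10 passed, with 7 higher and 1 lower, against a background of 68.6%, with 33.7% higher and 34.9% lower. With library size alone, the split of all genes in FAKO-labelled mice was 3223 higher and 8384 lower, against 5825 and 6035 here. The median log2 fold change of the 10 genes was 0.65 in control mice and 0.65 in FAKO-labelled mice, and that of all genes was -0.01 and -0.03. In whole tissue, a change in the number of cells of a type and a change in RNA per cell cannot be told apart. The summed level of 4 endothelial markers went from a range of 391 to 506 CPM to one of 670 to 775 CPM in control mice and from 444 to 577 CPM to 576 to 783 CPM in FAKO-labelled mice. These markers did not move as 1: in each label 3 passed as higher and 1, Tek, as lower (log2 fold change -0.73 and -0.95). The 5 erythroid markers ran from 233 to 1120 CPM at 30 °C and from 417 to 684 CPM at 5 °C in control mice, and from 289 to 609 CPM and from 517 to 1497 CPM in FAKO-labelled mice. All 5 passed as higher in cold FAKO-labelled mice (median log2 fold change 1.24) and 0 passed in cold control mice (median 0.07). For the difference of the cold responses 0 of the 5 passed. All markers of both lists had a mean of at least 1 CPM in each group, and their part in the changes of the 10 genes was not tested.

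**Figure D1:**
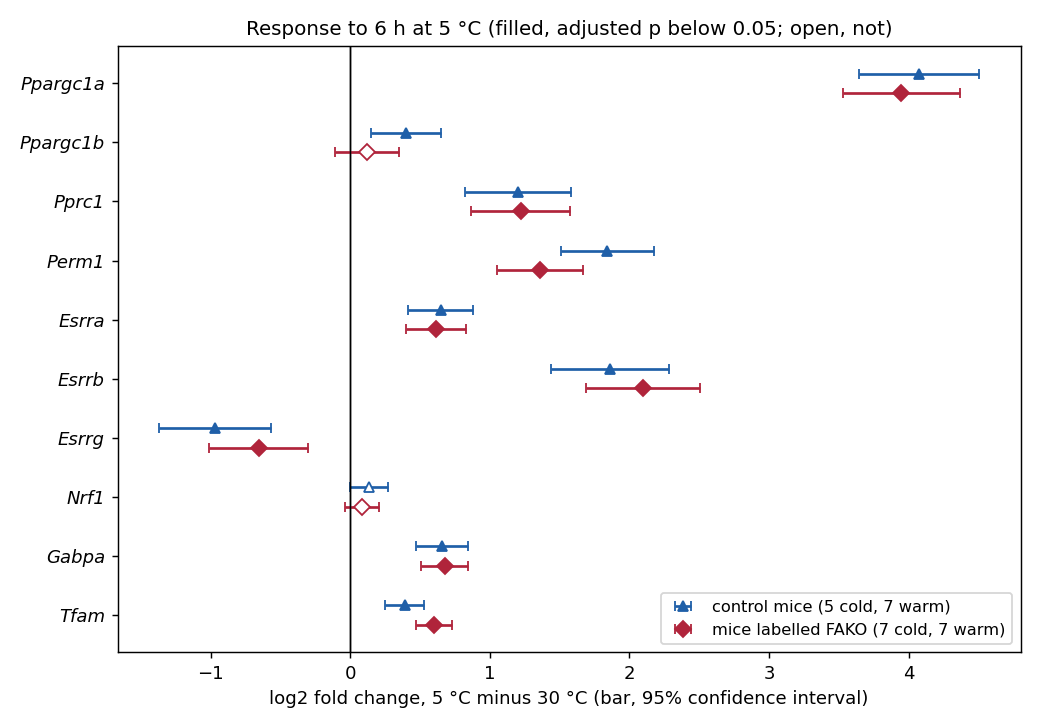
Log2 fold change of the 10 genes between 5 °C and 30 °C (x axis) in control mice (triangles) and in FAKO-labelled mice (diamonds), with 95% confidence intervals as bars and filled symbols where the adjusted p was below 0.05. Ppargc1a stands far to the right at 4.07 and 3.95, Esrrg is the gene to the left of 0, and the intervals of the labels overlap for each gene.

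Ppargc1a encodes PGC-1α, the inducible member of the family (ENSMUSG00000029167.13, chr5:51454250-51567726, minus strand, 14 exon blocks). At 30 °C it ran from 24.1 to 45.5 CPM in the 7 control mice, with a median of 31.9, and from 26.3 to 47.5 CPM in the 7 FAKO-labelled mice, with a median of 39.7. At 5 °C the 5 control mice had 783, 567, 552, 538 and 357 CPM, and the 7 FAKO-labelled mice ran from 348 to 856 CPM with a median of 523. Every cold mouse was far above every warm mouse, and the lowest cold mouse was a FAKO-labelled mouse. Ppargc1a rose by a log2 fold change of 4.07 (SE 0.21, 16.9-fold, edgeR adjusted p = 5.21e-15) in control mice and of 3.95 (SE 0.20, 15.4-fold, edgeR adjusted p = 3.3e-15) in FAKO-labelled mice. Its fold was close to that of Ucp1, which rose by 4.02 in control mice and by 4.34 in FAKO-labelled mice on the log2 scale. The spread within the cold groups was wide, with coefficients of variation of 27.1% and 31.1%, against 19.6% and 20.9% at 30 °C.

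**Figure D2:**
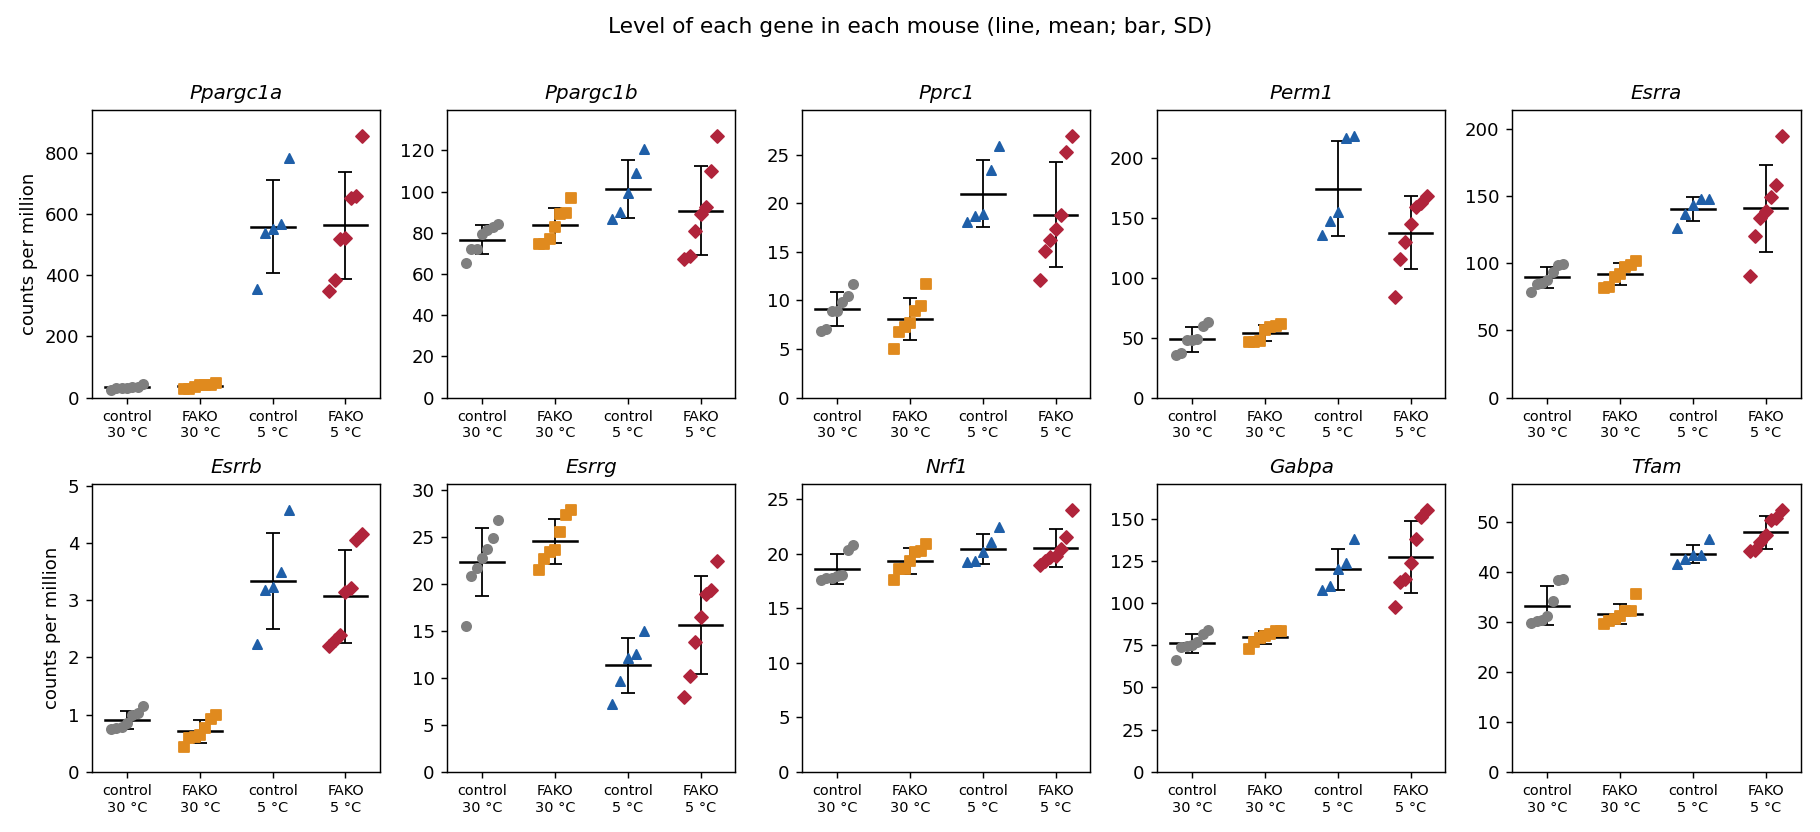
CPM (y axis, from 0) of each of the 10 genes in every mouse of the 4 groups (x axis). Points are mice, horizontal lines means and bars SD over 7, 7, 5 and 7 mice. Cold and warm mice separate fully for Ppargc1a, Pprc1, Perm1, Esrrb, Gabpa and Tfam, whereas Nrf1 stays between 17.6 and 24.0 CPM in all groups. The share of all genes tested that separate in this way was not counted, so nothing particular to these genes is read from it. Passing the threshold is another measure, met by 65.0% of all genes tested in cold control mice and by 68.6% in cold FAKO-labelled mice.

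The other family members responded far less. Ppargc1b, which encodes PGC-1β and is the more constant partner of PGC-1α in oxidative tissues, ran from 65.5 to 84.2 CPM in control mice at 30 °C. The 5 control mice at 5 °C had 99.3, 109, 121, 89.9 and 86.6 CPM, all above the warm mice. It rose 1.32-fold in control mice (log2 0.40, SE 0.12, edgeR adjusted p = 0.00592). In FAKO-labelled mice it ran from 74.5 to 97.0 CPM at 30 °C and from 67.3 to 127 CPM at 5 °C, and the groups overlapped. The log2 fold change there was 0.12 (95% interval -0.11 to 0.35, edgeR adjusted p = 0.351), and without scaling factors (library size alone) it was -0.22 and passed the threshold in the other direction (edgeR adjusted p = 0.0427). Without the libraries rich in muscle markers it was -0.16 and did not pass (edgeR adjusted p = 0.266), and the part of muscle in it was not tested. The difference between the labels in this response was not significant (-0.28, SE 0.17, edgeR adjusted p = 0.422).

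Pprc1 encodes PRC, the third member of the family, which is known as a gene induced by growth signals and stress. It ran from 6.89 to 11.7 CPM in control mice and from 4.98 to 11.7 CPM in FAKO-labelled mice at 30 °C. At 5 °C the control mice had 18.7, 25.9, 18.1, 18.9 and 23.5 CPM, and FAKO-labelled mice ran from 12.2 to 26.9 CPM. All cold mice lay above all warm mice of the same label. Pprc1 rose 2.30-fold in control mice (log2 1.20, SE 0.18, edgeR adjusted p = 2.58e-06) and 2.33-fold in FAKO-labelled mice (log2 1.22, SE 0.17, edgeR adjusted p = 6.37e-07). Its exons share 177 bases (2.82%) with Ldb1 on the opposite strand, which fell in both labels (log2 fold change -1.21 and -1.05), and the strand setting of the counting is not given in the sources used here.

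The balance within the family turned over in the cold. Levels of different genes were compared per kb of exon, and the share of each gene in the summed level of the 3 was computed for each mouse. At 30 °C Ppargc1b made up 74.8% ± 4.48 (SD, n = 7) of the family in control mice and 75.6% ± 3.14 (SD, n = 7) in FAKO-labelled mice, with Ppargc1a at 19.6% ± 3.85 and 19.8% ± 3.02. At 5 °C Ppargc1a made up 74.0% ± 4.89 (SD, n = 5) and 76.2% ± 5.10 (SD, n = 7), and Ppargc1b 22.9% ± 4.10 and 20.9% ± 3.91. The share of Ppargc1a was at most 27.6% in any warm mouse and at least 66.4% in any cold mouse. Pprc1 held the smallest share, from 5.63% in warm to 3.10% in cold control mice and from 4.60% to 2.90% in FAKO-labelled mice.

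**Figure D3:**
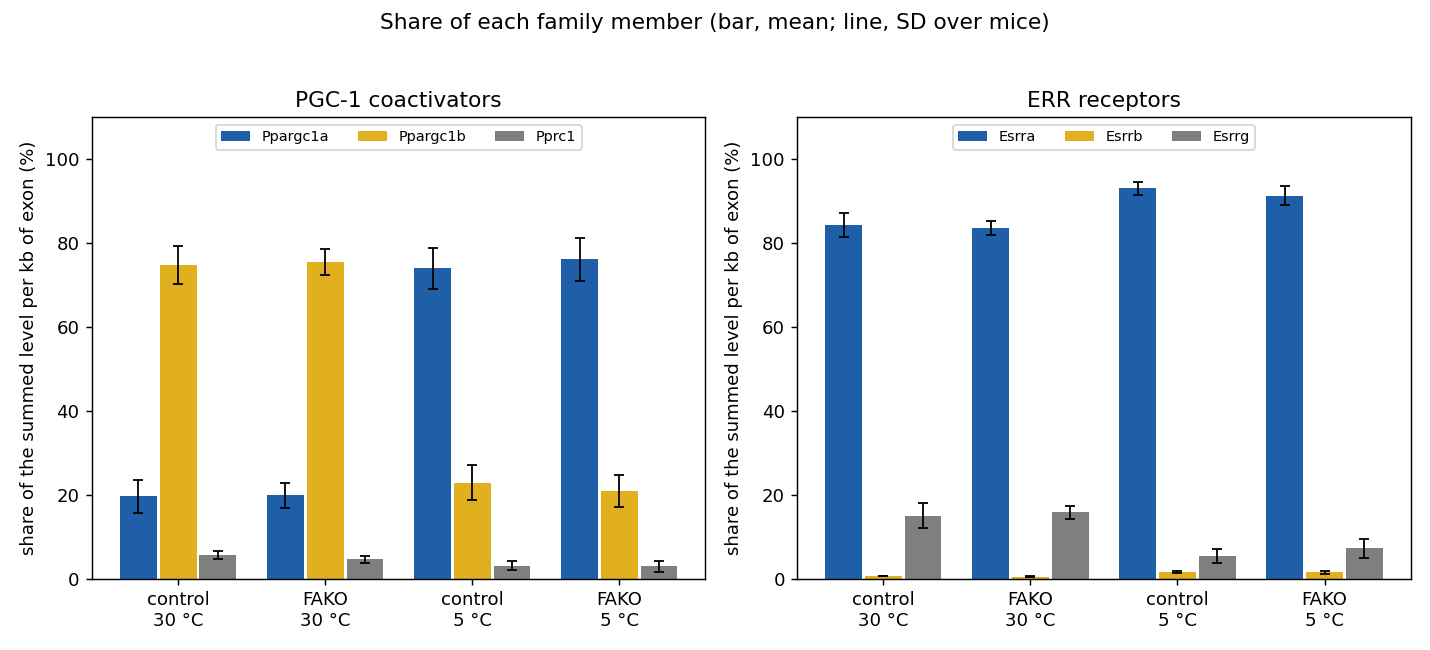
Share of each gene (y axis, percent) in the summed level per kb of exon of the 3 PGC-1 coactivators (left) and of the 3 ERRs (right) in the 4 groups (x axis), with bars for means and lines for SD over 7, 7, 5 and 7 mice. Ppargc1b leads the coactivators at 30 °C and Ppargc1a at 5 °C, and Esrra holds over 80% of the ERRs in each group.

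Perm1 encodes a regulator known from skeletal muscle and heart, where PGC-1 coactivators and ERRs induce it and it promotes oxidative genes (ENSMUSG00000078486.3, chr4:156215868-156221307, plus strand). At 30 °C it ran from 35.8 to 62.9 CPM in control mice and from 46.1 to 61.3 CPM in FAKO-labelled mice. The 5 control mice at 5 °C had 217, 218, 136, 155 and 147 CPM, and the 7 FAKO-labelled mice ran from 83.8 to 168 CPM with a median of 145. No cold mouse overlapped the warm mice, and 2 of the control mice stood above all FAKO-labelled mice. Perm1 rose 3.59-fold in control mice (log2 1.84, SE 0.16, edgeR adjusted p = 1.25e-10) and 2.57-fold in FAKO-labelled mice (log2 1.36, SE 0.15, edgeR adjusted p = 8.14e-09).

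Because Perm1 and Ppargc1a are used by muscle, their levels were set beside the muscle markers. In control mice at 5 °C, Perm1 averaged 170 CPM in the 3 libraries under 1000 CPM of markers and 182 CPM in the 2 above it, and Ppargc1a averaged 552 and 570 CPM. In FAKO-labelled mice at 5 °C, Perm1 averaged 128 CPM in the 4 libraries under the limit and 150 CPM in the 3 above it, and Ppargc1a averaged 479 and 676 CPM. The control mouse at 5 °C with the fewest muscle markers, 1.5 CPM in sum, had 552 CPM of Ppargc1a and 136 CPM of Perm1. At 30 °C the control mouse with 6507 CPM of markers had 31.6 CPM of Ppargc1a and 48.0 CPM of Perm1, inside the range of its group. The part of muscle in these levels was not tested.

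**Figure D4:**
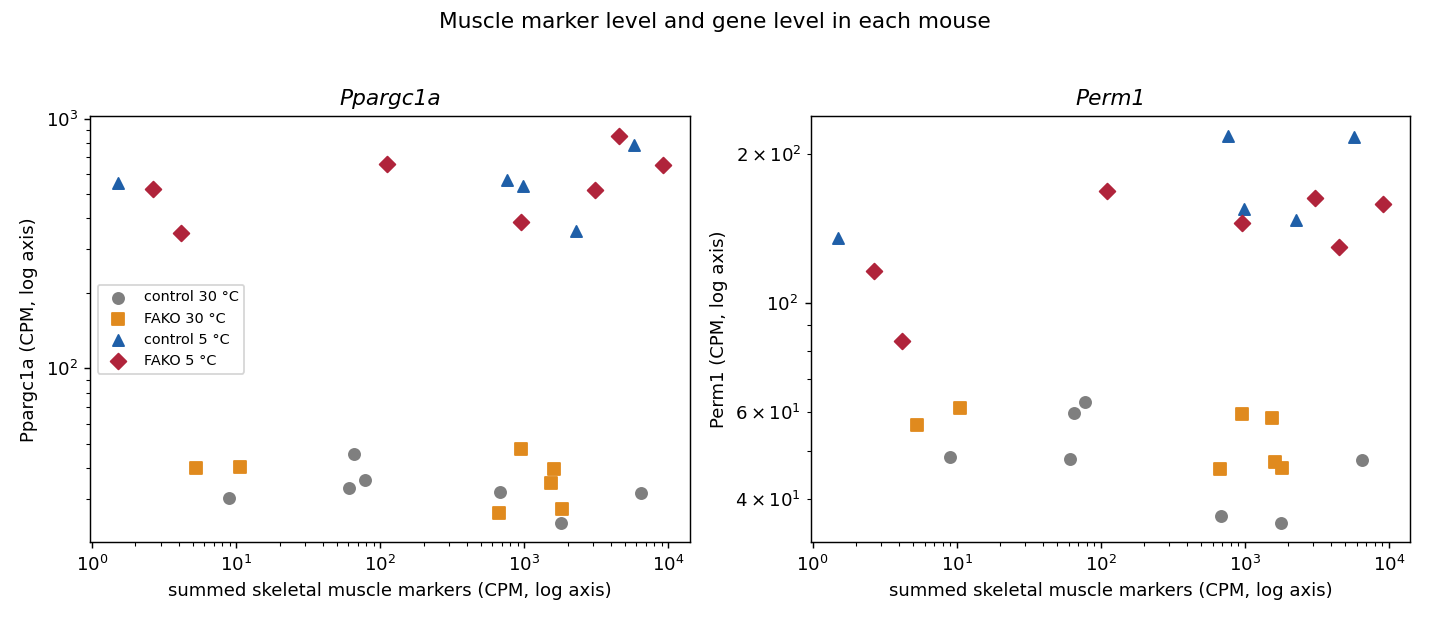
Level of Ppargc1a (left) and Perm1 (right) in CPM (y axis, log scale) against the summed level of 12 skeletal muscle markers (x axis, log scale) in each mouse, with a symbol for each of the 4 groups. Cold mice lie above warm mice from the lowest marker level, 1.5 CPM, to the highest, 9150 CPM.

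Among the ERRs, the most abundant and the least abundant gene rose in the cold and the remaining one fell. Esrra encodes ERRα, the main ERR of oxidative tissues and a partner of PGC-1α (ENSMUSG00000024955.13, chr19:6910977-6921813, minus strand). It ran from 78.3 to 99.4 CPM in control mice at 30 °C, and the cold control mice had 148, 148, 126, 137 and 143 CPM. The groups of control mice did not overlap, and Esrra rose 1.57-fold (log2 0.65, SE 0.11, edgeR adjusted p = 1.6e-05). In FAKO-labelled mice it ran from 81.5 to 102 CPM at 30 °C and from 90.4 to 194 CPM at 5 °C, so that 1 cold mouse lay among the warm ones. It rose 1.53-fold there (log2 0.61, SE 0.10, edgeR adjusted p = 9.97e-06), which with library size alone became 0.31 and missed the threshold (edgeR adjusted p = 0.052). Its exons share 73 bases (1.66%) with Trmt112, a gene of 2.58 to 3.40 CPM in the group means, and 91 bases with Mir6990.

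Esrrg encodes ERRγ, which acts on much the same genes as ERRα and is known for high activity without a ligand (ENSMUSG00000026610.13, chr1:187608791-188214885, plus strand). At 30 °C it ran from 15.5 to 26.8 CPM in control mice and from 21.4 to 27.8 CPM in FAKO-labelled mice. The control mice at 5 °C had 12.6, 7.25, 15.0, 9.67 and 12.1 CPM, all below the warm mice. In FAKO-labelled mice at 5 °C it ran from 7.93 to 22.4 CPM with a median of 16.4, and 1 of these 7 mice was within the warm range. In control mice Esrrg fell by 0.97 (log2, SE 0.20, edgeR adjusted p = 9.97e-05), and in FAKO-labelled mice it fell by 0.65 (log2, SE 0.17, edgeR adjusted p = 0.00162).

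Esrrb encodes ERRβ, best known from early embryos and stem cells, and was near the floor of detection. It had 11 to 25 counts per mouse in control mice and 8 to 21 in FAKO-labelled mice at 30 °C. At 5 °C it had 50 to 77 and 38 to 68 counts, and no cold mouse overlapped the warm mice of its label. Esrrb rose 3.63-fold in control mice (log2 1.86, SE 0.21, edgeR adjusted p = 1.02e-08) and 4.28-fold in FAKO-labelled mice (log2 2.10, SE 0.20, edgeR adjusted p = 4.45e-10), and still averaged 3.34 and 3.06 CPM in the cold.

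These changes left Esrra the leading ERR. Its share of the summed level per kb of exon was 84.4% ± 2.92 (SD, n = 7) in control mice and 83.7% ± 1.68 (SD, n = 7) in FAKO-labelled mice at 30 °C, and 93.1% ± 1.47 (SD, n = 5) and 91.3% ± 2.21 (SD, n = 7) at 5 °C. The share of Esrrg was 15.0% and 15.8% at 30 °C and 5.35% and 7.19% at 5 °C. Esrrb went from 0.618% to 1.59% of the family in control mice and from 0.467% to 1.49% in FAKO-labelled mice. Shares are descriptive means without a test. By the length of the longest transcript in place of all exons, the share of Esrra was 89.1%, 88.6%, 95.1% and 93.9% in the order control and FAKO at 30 °C, control and FAKO at 5 °C.

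Nrf1, which encodes nuclear respiratory factor 1, did not pass the threshold in either label. It ran from 17.6 to 20.8 CPM in control mice at 30 °C, and the cold control mice had 20.1, 21.0, 19.2, 19.3 and 22.5 CPM. The log2 fold change was 0.13 in control mice (95% interval -0.00 to 0.27, edgeR adjusted p = 0.0756) and 0.09 in FAKO-labelled mice (95% interval -0.04 to 0.21, edgeR adjusted p = 0.203). Leaving out control mouse 6 at 30 °C brought the value in control mice to 0.16 and past the threshold (edgeR adjusted p = 0.0346). With library size alone the value in FAKO-labelled mice was -0.23 and did not pass (edgeR adjusted p = 0.0593).

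Gabpa encodes the DNA-binding subunit of the GABP complex, also called nuclear respiratory factor 2 (ENSMUSG00000008976.16, chr16:84834925-84863779, plus strand). It ran from 66.3 to 83.8 CPM in control mice and from 73.0 to 83.4 CPM in FAKO-labelled mice at 30 °C. The cold control mice had 124, 110, 138, 108 and 120 CPM, and cold FAKO-labelled mice ran from 97.4 to 155 CPM, above the warm mice in each case. Gabpa rose 1.58-fold (log2 0.66, SE 0.09, edgeR adjusted p = 3.54e-07) and 1.60-fold (log2 0.68, SE 0.08, edgeR adjusted p = 5.02e-08). Its exons share 397 bases (6.98%) with Atp5j on the opposite strand, whose log2 fold change was -0.08 in control mice and 0.13 in FAKO-labelled mice, neither past the threshold. Both genes for its activating partner subunit rose as well, Gabpb1 by 0.53 and 0.32 and Gabpb2 by 0.74 and 0.43 on the log2 scale. With library size alone, the values in FAKO-labelled mice were -0.0013 for Gabpb1 (edgeR adjusted p = 0.991) and 0.13 for Gabpb2 (edgeR adjusted p = 0.33), and neither passed.

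Tfam encodes mitochondrial transcription factor A (ENSMUSG00000003923.14, chr10:71225464-71238280, minus strand). It ran from 29.9 to 38.7 CPM in control mice and from 29.6 to 35.7 CPM in FAKO-labelled mice at 30 °C. The cold control mice had 43.5, 43.4, 46.6, 41.7 and 42.7 CPM, and cold FAKO-labelled mice ran from 44.2 to 52.4 CPM, with no overlap between temperatures. It rose 1.31-fold in control mice (log2 0.39, SE 0.07, edgeR adjusted p = 1.74e-05) and 1.51-fold in FAKO-labelled mice (log2 0.60, SE 0.06, edgeR adjusted p = 3.83e-09).

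Per kb of exon, Esrra (20.4 CPM per kb) and Ppargc1b (19.2 CPM per kb) led the set in control mice at 30 °C, with ranges that overlapped, and the same pair led in FAKO-labelled mice. Gabpa (13.4 CPM per kb) and Perm1 (12.5 CPM per kb) followed and overlapped, then Tfam (7.50), Ppargc1a (5.03) and Esrrg (3.59), each overlapping its neighbour. Nrf1 (1.81) and Pprc1 (1.45) overlapped, and Esrrb (0.149) lay below all others. At 5 °C Ppargc1a moved from the sixth place to the first, at 84.8 CPM per kb in control mice and 85.5 CPM per kb in FAKO-labelled mice. Perm1 came second at 44.7 and 35.3 CPM per kb, its range overlapping that of Ppargc1a in control mice and that of Esrra in FAKO-labelled mice. Esrrg dropped to 1.82 CPM per kb in control mice, next to Nrf1 at 1.99, and the ranges of these genes overlapped. By the length of the longest transcript, an alternative added after the values were seen, these were 2.11 for Esrrg and 5.05 for Nrf1 with no overlap. By that length Esrra led at 30 °C without overlapping Ppargc1b (36.0 and 21.0 CPM per kb in control mice), and at 5 °C Ppargc1a stayed first with Esrra second (56.3 CPM per kb in control mice) and Perm1 the third.

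The label itself moved none of the 10 genes past the threshold. At 30 °C 0 of 10 passed and 0 had an unadjusted p below 0.05 with edgeR, and DESeq2 also called 0. Of all genes tested, 14 (0.081%) passed with edgeR and 0.278% with DESeq2, and 7.65% had an unadjusted p below 0.05. The log2 differences between FAKO-labelled mice and control mice ran from -0.36 (Esrrb) to 0.14 (Perm1). For Ppargc1a the difference was 0.14 with a 95% interval of -0.24 to 0.51.

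At 5 °C 0 of 10 passed with edgeR and with DESeq2, while 24 of all genes tested (0.139%) passed with edgeR and 1.14% with DESeq2. An unadjusted p below 0.05 was found for 2 of the 10 genes, which is read against 13.4% of all genes tested with such a p. Those 2 were Esrrg, higher by 0.45 on the log2 scale (SE 0.19, edgeR adjusted p = 0.304), and Perm1, at -0.34 (SE 0.16, edgeR adjusted p = 0.355). Ppargc1a averaged 559 CPM in control mice and 564 CPM in FAKO-labelled mice, a log2 difference of 0.01 with a 95% interval of -0.39 to 0.41. The direction turned with library size alone (-0.066, edgeR adjusted p = 0.967) and without the libraries rich in muscle markers (-0.19, edgeR adjusted p = 0.728). Esrra (0.00, interval -0.23 to 0.24) and Nrf1 (0.01, interval -0.13 to 0.14) had differences close to 0.

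**Figure D5:**
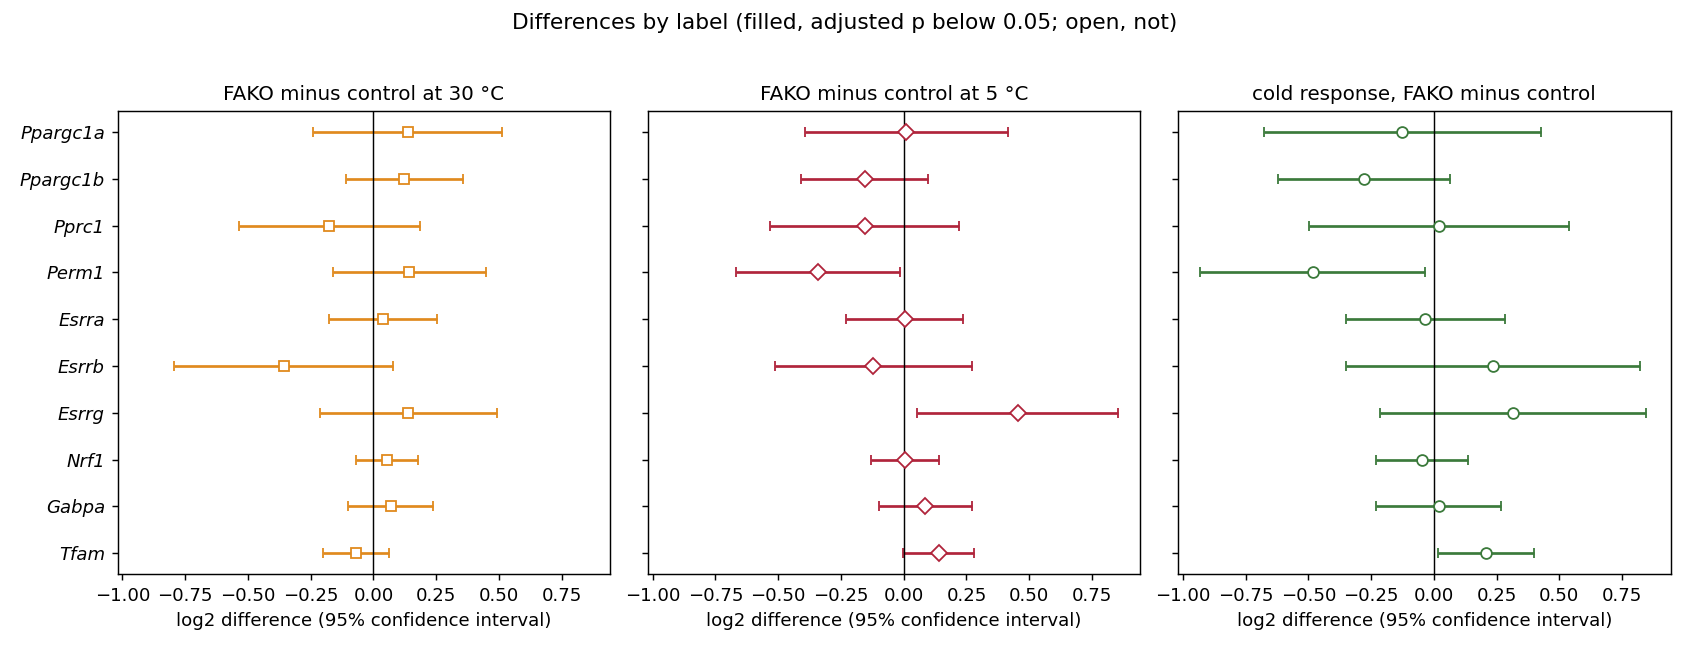
Log2 differences of the 10 genes (x axis) between FAKO-labelled mice and control mice at 30 °C (left) and at 5 °C (middle), and between their cold responses (right), with 95% confidence intervals as bars and open symbols where the adjusted p was not below 0.05. All symbols are open, and the intervals that leave out 0 are those of Perm1 and Esrrg at 5 °C and of Perm1 and Tfam for the cold response.

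The cold responses of the labels were compared directly as an interaction. None of the 10 genes passed with edgeR or with DESeq2, while 200 of all genes tested (1.16%) passed with edgeR and 2.82% with DESeq2. An unadjusted p below 0.05 was found for 2 of the 10, which is read against 16.2% of all genes tested. Perm1 responded less in FAKO-labelled mice by 0.48 on the log2 scale (SE 0.22, 95% interval -0.93 to -0.04, edgeR adjusted p = 0.271), and Tfam had a difference of 0.21 (SE 0.09, 95% interval 0.02 to 0.40, edgeR adjusted p = 0.267). The difference for Ppargc1a was -0.13 (95% interval -0.68 to 0.43, edgeR adjusted p = 0.863). The widest intervals were those of Esrrb, from -0.35 to 0.82, and of Ppargc1a.

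Genes linked to the set were described by lists of known partners and targets, to be read against the 31.6% of all genes that rose and the 33.4% that fell in cold control mice, and the 33.7% and 34.9% in cold FAKO-labelled mice. Of 14 genes whose products activate PGC-1α or work with it, 5 rose, 3 fell and 6 did not pass in cold control mice, and 6 rose, 4 fell and 4 did not pass in FAKO-labelled mice. The median log2 fold change of this list was 0.03 and -0.02, close to that of all genes. Ncoa1, which encodes the coactivator SRC-1, rose by 1.33 and 1.17 on the log2 scale. Ppara, a nuclear receptor of fat oxidation that PGC-1α coactivates, fell by 1.17 and 1.03, and Lpin1, whose product serves PGC-1α in the nucleus and lipid synthesis in the cytosol, fell by 0.95 and 0.75. Med1, a subunit of the Mediator complex, rose by 1.18 in control mice and by 1.15 in FAKO-labelled mice. Irf4, a cAMP-induced partner of PGC-1α in BAT, rose by 1.68 in FAKO-labelled mice (SE 0.42, edgeR adjusted p = 0.00103), where its level varied from mouse to mouse (68.3 CPM ± 61.3, SD, n = 7). Without the libraries over 1000 CPM of muscle markers its value was 0.84 and did not pass (edgeR adjusted p = 0.0655), and the part of muscle in it was not tested. In control mice, with all libraries, Irf4 was at 0.94 and did not pass (edgeR adjusted p = 0.069).

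Of 8 genes whose products restrain PGC-1 coactivators, 3 rose, 3 fell and 2 did not pass in cold control mice, and 3 rose, 4 fell and 1 did not pass in FAKO-labelled mice. Mybbp1a, a repressor bound to PGC-1α, rose by 1.54 and 1.60 on the log2 scale, and Nrip1, the corepressor RIP140, by 1.13 and 1.27. Twist1, which is known to dampen PGC-1α in brown fat, fell by 1.10 and 0.94, and Rnf34, a ubiquitin ligase for PGC-1α, by 0.67 and 0.39. The medians of the list were -0.14 and -0.16.

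Of 10 genes upstream of Ppargc1a, 4 rose, 2 fell and 4 did not pass in control mice, and 5 rose, 3 fell and 2 did not pass in FAKO-labelled mice, with medians of 0.14 and 0.19. Without the libraries rich in muscle markers, the counts in FAKO-labelled mice were 3 higher and 2 lower, with a median of 0.08. Atf2, which binds the Ppargc1a promoter once phosphorylated, rose by 0.89 and 0.76 on the log2 scale, and Mef2d by 0.84 and 0.84. Mapk14, the kinase p38α that phosphorylates ATF2, fell by 0.83 and 0.80, and Mef2c by 0.91 and 0.84. Of the 3 genes of the list for CREB and its coactivators, named here after their values were seen, Creb1 and Crtc2 did not pass in either label, and Crtc3 fell by 0.26 in FAKO-labelled mice (edgeR adjusted p = 0.00373) and was at -0.12 in control mice (edgeR adjusted p = 0.201).

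Targets of these factors were counted in the same way. Of 13 genes known as ERR targets, 8 rose, 1 fell and 4 did not pass in control mice, and 9 rose, 1 fell and 3 did not pass in FAKO-labelled mice, with medians of 0.36 and 0.61. Of all genes tested, 31.6% and 33.7% rose and 33.4% and 34.9% fell, with medians of -0.01 and -0.03. The counts were 7 and 9 higher and 1 lower in each label without the libraries rich in muscle markers, with medians of 0.30 and 0.29. Pdk4, which spares glucose by blocking pyruvate dehydrogenase, rose by 1.89 and 2.62 on the log2 scale, and Fabp3, a carrier of fatty acids, by 1.41 and 1.37. Sirt3, a mitochondrial deacetylase, fell by 0.41 and 0.27. Of 7 targets of NRF1 and GABP, 3 rose, 1 fell and 3 did not pass in control mice, and 5 rose, 1 fell and 1 did not pass in FAKO-labelled mice, with medians of 0.19 and 0.40. Cycs, which encodes cytochrome c, rose by 0.93 and 1.24 and is on both lists. Tomm20, of the mitochondrial import pore, rose by 0.61 and 0.79, and Alas1, the first enzyme of heme synthesis, fell by 1.08 and 0.90.

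The 23 genes that replicate, maintain or transcribe mitochondrial DNA were split. In control mice 10 rose, 8 fell and 5 did not pass, and in FAKO-labelled mice 10 rose, 7 fell and 6 did not pass, with medians of 0.07 and 0.10. Of all genes tested, 65.0% passed in control mice and 68.6% in FAKO-labelled mice. Polrmt, the RNA polymerase of mitochondria, rose by 0.98 and 0.92 on the log2 scale. Mterf3, a regulator of mitochondrial transcription, rose by 1.04 and 0.89, and Twnk, the replicative helicase, by 0.91 and 0.92. Among genes of at least 1 CPM, Rrm2b, which supplies nucleotides, fell by 1.49 in control mice and by 1.30 in FAKO-labelled mice. Tk2, in the same role, fell by 1.23 and 0.85, and Polg2, a subunit of the replicative polymerase, by 0.85 and 1.17. Below 1 CPM, Mterf1b, of the transcription termination factor family, fell by 1.32 and 1.00. Of the 13 protein-coding genes of the mitochondrial genome, 8 could be tested. The untested genes, mt-Co2, mt-Co3, mt-Atp6, mt-Atp8 and mt-Nd4l, had group means of at most 0.283 CPM. In contrast, mt-Co1 averaged 56767 CPM in control mice at 30 °C, and the cause of this gap was not tested. Among the 8 tested genes, 2 passed in control mice, mt-Nd6 and mt-Co1, both lower. In FAKO-labelled mice 3 passed, mt-Nd1, mt-Nd2 and mt-Nd4, all higher. The calls of mt-Co1 and mt-Nd6 were lost in 8 and 6 of 12 fits that left out 1 mouse, that of mt-Nd2 in 7 of 14, and mt-Nd1 (0.17) and mt-Nd2 (0.03) did not pass without the libraries rich in muscle markers. Without them 4 of the 8 passed as lower in control mice, and 0 passed as higher and 3 as lower in FAKO-labelled mice. With library size alone, mt-Nd1 (0.20, edgeR adjusted p = 0.151) and mt-Nd2 (0.26, edgeR adjusted p = 0.225) did not pass in FAKO-labelled mice, and the part of muscle in these values was not tested.

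Across the lists, 83 genes outside the set were tested. By label at 30 °C 0 passed with edgeR and with DESeq2, and 5 had an unadjusted p below 0.05, against 7.65% of all genes tested. At 5 °C 0 passed with edgeR, 6 had an unadjusted p below 0.05 (13.4% of all genes tested), and DESeq2 called 1, Crebbp (1.14% of all genes tested). For the difference of the cold responses 0 passed with edgeR, 12 had an unadjusted p below 0.05 (16.2% of all genes tested), and DESeq2 called 2, Crebbp and Cycs (2.82% of all genes tested).

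The genes with the most similar pattern were found by the distance between the 4 group means of log2 CPM, each gene centred on its own mean, among 14246 genes with at least 1 CPM. With 4 points per gene this is a description. Nearest to Ppargc1a was Socs2, a suppressor of cytokine signalling, which went from 7.10 to 116 CPM in control mice and from 7.45 to 120 CPM in FAKO-labelled mice (distance 0.044). Pgf, a growth factor of the VEGF family, followed (1.81 to 30.2 and 1.95 to 35.6 CPM), and then Drd1, a dopamine receptor gene (0.122 to 3.37 and 0.164 to 3.73 CPM). For Perm1 they were Gch1, Klhl30 and Gm12098, for Esrra Sf3a1, Wdr26 and Mapk8, and for Esrrg Tmem184a, Slc15a2 and Etaa1. A small distance between means of log2 CPM does not ensure a like log2 fold change from the fit. Slc15a2 had -0.71 in control mice and 0.09 in FAKO-labelled mice, against -0.97 and -0.65 for Esrrg. Klhl30 had 2.19 and 2.92, against 1.84 and 1.36 for Perm1. Chac1, Trib3 and Thoc6 lay nearest to Esrrb, Map2k3, Galnt2 and Hspa5 to Pprc1, and Rbm15, Srcap and Donson to Ppargc1b. Lamtor1, Dclre1b and Hspbap1 were nearest to Gabpa, Lancl2, Rpl3 and Prpf31 to Tfam, and Zbtb44, Ash2l and Gm28557 to Nrf1. With library size alone, 2 of the 3 genes remained for Esrrb, Nrf1 and Tfam, and all 3 for the other members.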

How the data were processed

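BAT of 26 mice was measured by stranded, rRNA-depleted RNA-seq with 100-bp single reads. The deposited values are raw counts per gene, 1 column per mouse, which the authors obtained with STAR 2.5.2b (alignment to mm10) and featureCounts 1.5.2 (GENCODE M13 genes). The strand setting of the counting is not given in the sources used here. Groups come from the sample labels.

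Genes were kept with filterByExpr and tested in R 4.3.3 with edgeR 4.0.16 (legacy quasi-likelihood, the method of the edgeR 3.22.0 of the study) and limma 3.58.1, with TMM factors, 1 term per group over all mice, and Benjamini-Hochberg adjustment at 0.05. Symbols (50376 of 50686 genes), exon lengths and positions come from GENCODE M21, and promoters from RefSeq. Standard errors and intervals come from the quasi-likelihood F, and log2 CPM used a prior count of 2. Mice of a group are separate animals.

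The members and lists were chosen with earlier results of these data known. Named from each list are, per comparison, up to 2 called genes with the largest rise and 2 with the largest fall, where the mean reached 1 CPM, and for each member its 3 nearest genes. Other list genes named in the text were named after their values were seen. They are Creb1, Crtc2, Crtc3, Crebbp, Mterf1b, mt-Nd4 and the untested genes of the mitochondrial genome. The marker Tek was also named after its values were seen. Fits were tested on simulated data in which a small part of the genes changed, in cold control mice only. That setting does not cover changes as broad as those in the cold here, or the choice of scaling factors. Alternatives were DESeq2 1.42.0, RLE factors, library size alone, edgeR's revised method, no filter, a minimum of 10 counts in each mouse, only the groups compared, leaving out each mouse, and, added after seeing the data, leaving out libraries rich in muscle markers and, for the nearest genes, library size alone. Protein sequences were not analysed here.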

Additional observations from a re-analysis of the deposited data

How the results depend on the processing

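The count of the 10 genes past the threshold stayed within 1.5 times its value under each alternative tried. From 9 or 8 of 10 it could not have risen past that limit, and a stable count can hide exchanged genes. In cold FAKO-labelled mice, library size alone lost Esrra (0.31, edgeR adjusted p = 0.052) and called Ppargc1b with a negative sign (-0.22, edgeR adjusted p = 0.0427). In control mice the count was 9 to 10 when 1 mouse was left out and in FAKO-labelled mice it was 8, and it was 0 in the 3 other comparisons. Requiring 10 or more counts in each mouse removed Esrrb from the test and gave 8 and 7. Library size alone moved the median of all genes from -0.01 to -0.14 in cold control mice, from -0.03 to -0.34 in cold FAKO-labelled mice, from -0.02 to 0.13 between labels at 30 °C and from 0.04 to -0.15 for the interaction, and values there are relative to that shift. Its calls over all genes were 34 higher and 0 lower at 30 °C, against 10 and 4, 4 higher and 1 lower at 5 °C, against 8 and 16, and 0 higher and 278 lower for the interaction, against 50 and 150. It reversed Ppargc1b (-0.22), Nrf1 (-0.23) and Gabpb1 (-0.0013) in cold FAKO-labelled mice, Tfam (0.085) and Afdn (0.15) between labels at 30 °C, Ppargc1a (-0.066), Esrra (-0.029), Nrf1 (-0.039) and Ucp1 (-0.0033) at 5 °C, and Pprc1 (-0.15) and Gabpa (-0.21) between the cold responses. Leaving out libraries rich in muscle markers reversed Ppargc1b in cold FAKO-labelled mice (-0.16), Ppargc1a at 5 °C (-0.19), and Pprc1 (-0.16), Esrra (0.041), Nrf1 (0.058) and Gabpa (-0.053) between the cold responses. The filter at 10 counts reversed Afdn at 30 °C (0.0020), Esrra (-0.0042) and Nrf1 (-0.0014) at 5 °C and Gabpa between the cold responses (-0.0023), and Afdn at 30 °C was 0.0039 without a filter and 0.0052 with only the groups compared. Apart from Ppargc1b with library size alone, none of these values had been called or became called among the 10 genes, and the cause was not tested. With 1 mouse left out, the label difference of Afdn at 30 °C spanned -0.048 to 0.056. The label differences at 5 °C spanned -0.091 to 0.088 for Esrra, -0.24 to 0.020 for Esrrb, -0.035 to 0.043 for Nrf1, -0.12 to 0.16 for Ppargc1a and -0.031 to 0.087 for Ucp1. Between the cold responses the spans were -0.13 to 0.050 for Esrra, -0.032 to 0.075 for Gabpa, -0.25 to 0.027 for Ppargc1a and -0.086 to 0.13 for Pprc1.

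Over all genes, the label at 30 °C called 14 genes, 48 with DESeq2, 34 with library size alone and 9 without a filter. At 5 °C it called 24 genes, 197 with DESeq2, 45 with the filter at 10 counts, 15 without one, 9 with only the groups compared, and 5 with library size alone or without the libraries rich in muscle markers. The interaction called 200 genes, 488 with DESeq2, 27 without a filter and 31 without those libraries. With 1 mouse left out these counts ran from 7 to 93, from 7 to 100 and from 49 to 371. The 93 and the 371 both came from leaving out control mouse 7 at 30 °C. Its library had the most muscle markers of its group (6507 CPM) and the lowest share of the mitochondrial genome (14.3%). No paired analysis was made, because the control mice were littermates but the sample labels used here do not give the litter of a mouse. Depth limits Esrrb, which had as few as 8 counts in a mouse.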
